A study of Hippoglossus hippoglossus with 15 samples.

Results

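The transcripts of high quality Atlantic halibut embryos were compared between the germ ring stage (GR) and the 8-cell stage (8CS), with 3 arrays for GR at 82 hours post fertilization (hpf) and 3 arrays for 8CS at 8 hpf, 74 hours apart. These 6 arrays were chosen by their labelled stage and quality out of 15 in the series. All embryos were Atlantic halibut (Hippoglossus hippoglossus), from oocytes of several females fertilized in vitro with the pooled sperm of males. High quality refers to the fertilization success and the later hatching success of the batch. Each array held Cy3-labelled RNA of whole frozen embryos from 1 egg batch, and the p-values measure the spread between 3 batches per stage. Whole embryos were measured, so fewer cells of a type and less RNA per cell cannot be told apart. The sample labels give a single farm, whereas the methods describe more than 1 collection of embryos. Embryos for the stage series came from a commercial farm, and those for the quality comparison from a university. The latter were incubated in dishes, at a slightly lower temperature, in seawater with antibiotics. Which collection gave the 8CS arrays could not be told. If it differed between the stages, stage and collection cannot be told apart.

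In teleosts the egg is loaded with maternal mRNAs that drive the first cleavages while the zygotic genome is still silent. Maternal mRNAs are then degraded, partly by shortening of the poly(A) tail, and zygotic transcription begins at the blastula stages, before the germ ring forms at the margin of the blastoderm at the onset of gastrulation. The 8CS embryo therefore carries the maternal load, and the pair asks which transcripts were lower and which were higher once that transition had passed.

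The custom array carried 10180 probe names, most of them printed in 4 or 5 copies. A level is the log2 of the background-subtracted spot intensity relative to the 75th percentile of the same array, averaged over the copies, so that 0 marks the 75th percentile of an array and 1 unit is a 2-fold difference. A probe counted as well above background on an array where the scanner software marked most of its copies so. Of the 10180 probes, 8908 reached the 20th percentile on at least 1 of the 6 arrays and were tested with limma. A probe was called where the Benjamini-Hochberg adjusted p was under 0.05 and the stage means differed at least 2-fold. A name was available for 185 probes, and other probes are given by their identifier. The names of many immune, signalling and metabolic probes come from similarity to other species, and the roles stated for them are those known from mammals or zebrafish. Probes differ in how brightly they report, so an order of probes by level describes their signal and not the amount of each RNA.

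The arrays of each stage were mostly alike, with the main exception at 8CS. Correlations over probes were between 0.977 and 0.992 within GR and between 0.943 and 0.987 within 8CS, against 0.793 to 0.854 between the stages. Of the 8CS arrays, replicate 3 was nearest to GR, with 0.838 to 0.854, against 0.793 to 0.820 for replicates 1 and 2. GR replicate 3 was the GR array nearest to 8CS for 58.2% of the probes called higher and 61.7% of those called lower. On it, 16 tested probes were at least 8-fold brighter than on both other GR arrays. GR replicate 3 and 8CS replicate 3 were both on slide 4. The share of probes well above background was 69.3% to 77.3% at GR and 76.2% to 80.6% at 8CS. The main exception was a set of 204 tested probes. They were at least 8-fold brighter on each of 8CS replicates 1 and 2 than on 8CS replicate 3. Their median level was -7.11, -6.81 and -6.20 on the GR arrays, against -1.91, -1.51 and -6.90 on the 8CS arrays. 8CS replicates 1 and 2 shared slide 1, and 8CS replicate 3 was on slide 4. A low quality 8CS array on slide 1 had a median of -8.33 for these probes. Whether the slide played a part was not tested. The same probes had a median level of 3.51 to 3.65 on the 3 arrays of hatched embryos, and in 198 of the 204 the mean of these arrays was above that of 8CS replicates 1 and 2. In the opposite sense, 10 probes were at least 8-fold brighter on 8CS replicate 3 than on both other 8CS arrays, and 7 of them were called higher at GR. None of the 204 probes had a name or belonged to a list described here. They made up 51 of the probes called lower at GR. Without 8CS replicate 3, 190 of the 204 were called lower. The counts, and the probes on which the 8CS arrays differed most, are therefore given with all 6 arrays and again with 8CS replicates 1 and 2 left out.

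**Figure D1:**
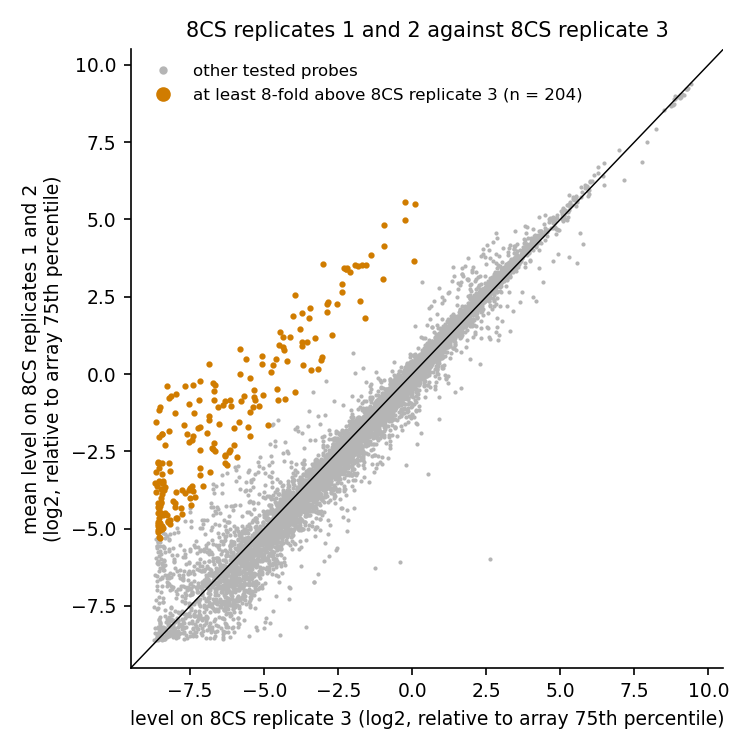
Level of each tested probe on 8CS replicate 3 (x axis) and its mean on 8CS replicates 1 and 2 (y axis), both log2 relative to the array 75th percentile, with the line of equal levels. The 204 probes in orange, at least 8-fold brighter on replicates 1 and 2, lie above the line, and fewer probes lie as far below it.

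Between GR and 8CS, 4126 of the 8908 tested probes were called, or 46.3%. Of these, 2058 (23.1%) were higher at GR and 2068 (23.2%) were lower, and 4782 were called in neither direction. The median difference over all tested probes was 0.08, with quartiles of -1.02 and 0.97, and the median SD between arrays was 0.32 at GR and 0.27 at 8CS. The levels of the GR and the 8CS arrays did not overlap for 2047 of the probes called higher and for 2050 of those called lower, against 63.6% of all tested probes in either direction. The near-equal split was that of the scaling to the 75th percentile of each array. Scaled to the spike-in probes instead, 1614 probes were higher and 2457 were lower at GR, and the median difference over all tested probes was -0.19. With 8CS replicates 1 and 2 left out, 1704 probes were higher and 1814 were lower, and 3343 of the original calls were kept, each in the same direction. Stage and slide were largely confounded. 8CS replicates 1 and 2 were on slide 1, which held no GR array, and GR replicates 1 and 2 were on slides 2 and 3. Only GR replicate 3 and 8CS replicate 3 were on the same slide. On that slide 2057 of the 2058 higher and 2057 of the 2068 lower probes had the direction of their call. Both arrays had taken part in the calls. For the 2047 higher and 2050 lower probes without overlap, the direction on that slide was already fixed. The agreement in direction is therefore no separate check of the slide.

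**Figure D2:**
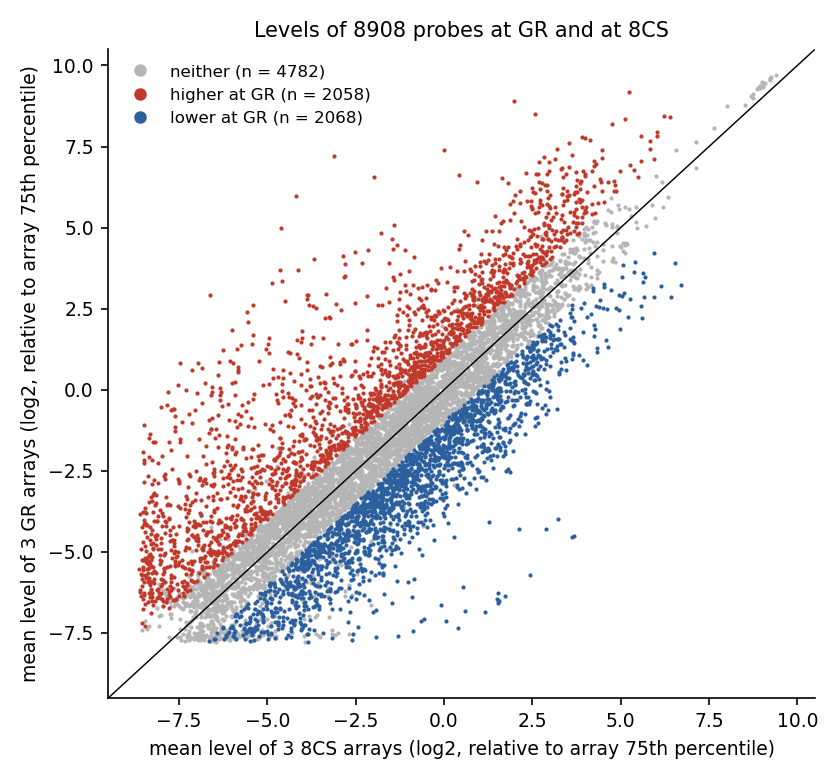
Mean level of each of the 8908 tested probes on the 3 GR arrays (y axis) and the 3 8CS arrays (x axis), both log2 relative to the array 75th percentile, with the line of equal levels. The 2058 probes called higher at GR lie above the line and fan out toward dim 8CS levels, and the 2068 called lower lie in a narrower band below it.

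Among probes well above background on all 6 arrays, large differences were more often rises than falls. This limit left out, among others, 139 probes seen only at GR and 269 seen only at 8CS, described below. Also left out were called probes well above background on 2 or 1 arrays of the dimmer stage (130 and 130 higher, 166 and 120 lower). The lowest level that passed as well above background was -5.46, -5.97 and -6.21 on the GR arrays. It was -6.04, -6.95 and -6.95 on the 8CS arrays, so falls could be followed less far down than rises. Of the probes within it, 1472 were higher at GR with a median difference of 1.78, and 1502 were lower with a median of -1.70. Differences of at least 16-fold were found in 117 of the higher and in 9 of the lower probes, and 3 of those 9 belonged to the 204 probes that set 8CS replicates 1 and 2 apart. At 64-fold or more there were 29 higher and 2 lower probes, and both lower ones were among the 204. Many probes held their level on this scale, and of the 6632 probes well above background on all 6 arrays, 3577 (53.9%) differed less than 2-fold between the stage means.

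**Figure D3:**
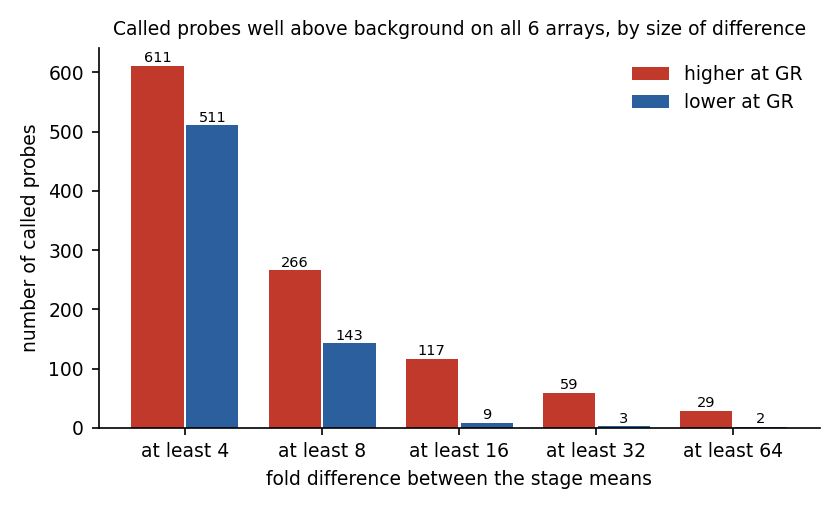
Number of called probes, of those well above background on all 6 arrays, whose stage means differed at least 4-, 8-, 16-, 32- and 64-fold (x axis), higher at GR in red and lower at GR in blue. The counts are 611 and 511 at 4-fold and 117 and 9 at 16-fold.

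The brightest 5 probes were the same at both stages and did not differ by the test. HH_Contig2536 had 9.65, 9.39 and 10.11 at GR, against 9.74, 9.02 and 9.43 at 8CS. The ranges of the stages overlapped, and the difference was 0.32 with an adjusted p of 0.366. The other 4 (HH_Contig2625, HH_193890153, HH_75737868 and HH_Contig2893) differed by 0.32 to 0.37.

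Some probes were near the limit of detection at 1 stage and well above it at the other. On all 3 GR arrays and none of the 3 8CS arrays, 139 probes (1.37% of 10180) were well above background. The reverse held for 269 probes (2.64%), of which 19 were among the 204. The marks were made on the unscaled signal, and the arrays were not equally bright. Their 75th percentile was at a signal of 773, 856 and 515 at GR, against 716, 1151 and 845 at 8CS. The counts are not corrected for this. These counts depended on which array was left out. Without 8CS replicate 3 the count only at 8CS was 405, and without GR replicate 3 it was 424. For such probes a fold difference is given as a bound, the mean of the brighter stage over the higher of the dim probe's own level and the lowest signal that passed as well above background. Below background the levels themselves carried a shift: over the 1442 probes that were on no array well above background, the median of GR minus 8CS was 0.84, and 955 of them were higher at GR without overlap. Of the 1442 probes, 186 were tested and 71 were called, all of them higher, so that a call at this level has no measured size.

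The largest rises among probes measured on all 6 arrays had no name. HH_Contig1546 had levels of 6.80, 6.52 and 6.36 at GR, against -3.45, -3.03 and 0.54 at 8CS. The GR arrays were close together while 8CS replicate 3 stood well above the other two 8CS arrays, without reaching GR. The difference was 8.54 (SE 0.98, 372-fold, adjusted p 0.000374), and it was 6.02 with 8CS replicates 1 and 2 left out. HH_Contig1956 was 225-fold higher (difference 7.81), with 4.13, 3.88 and 3.04 at GR against -5.26, -4.90 and -2.22 at 8CS, and HH_90595874 was 209-fold higher (7.71). These were 5.90 and 6.40 with 8CS replicates 1 and 2 left out. In both, 8CS replicate 3 was again the highest of the 8CS arrays. HH_Contig2735 combined a high level with a large rise, with 7.38 ± 0.21 at GR and -0.01 ± 0.70 at 8CS (SD, n = 3 each, difference 7.39). HH_Contig1445 reached 9.04, 8.73 and 8.96 at GR against 1.31, 1.75 and 2.85 at 8CS (difference 6.94). The stages lay far apart in both. The rest of the 10 largest (HH_38317594, HH_90596074, HH_90599673, HH_90596411 and HH_91063354) rose by 6.78 to 7.26. All 10 stayed called with 8CS replicates 1 and 2 left out.

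Still larger bounds were found where 8CS was measured on only some arrays, in probes singled out after their values were seen. HH_90598325 was at 7.17, 7.27 and 7.18 at GR, against -6.11, -5.84 and 2.64 at 8CS. It was well above background on 2 of the 3 8CS arrays, and its GR mean was at least 1248-fold above the 8CS mean. HH_Contig2515 was at least 1064-fold higher and HH_90604952 at least 696-fold higher by the same measure. In all 3 the 8CS arrays were far from each other, with replicate 3 the brightest. With 8CS replicates 1 and 2 left out the differences were 23.8-fold, 82.7-fold and 76.5-fold in the same order.

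Of the named probes measured on all 6 arrays, interferon-inducible protein 56 (ifi56), an antiviral protein that binds foreign RNA in mammals, had the largest difference. Its levels were 0.78, 0.64 and -0.23 at GR, against -4.70, -4.79 and -4.62 at 8CS. The groups did not overlap, the 8CS arrays were nearly equal, and the rise was 5.10 (SE 0.30, 34.3-fold, adjusted p 5.6e-05). With normexp background correction it was 2.65 and not called (adjusted p 0.0955). Larger rises were then those of tfpi2 (3.00), inositol monophosphatase 1 (2.87), dda1 (3.45) and fructose-1,6-bisphosphatase 1 (3.27). Tissue factor pathway inhibitor 2 (tfpi2), a secreted inhibitor of serine proteases, had 1.04, 0.88 and 0.66 at GR against -3.38, -4.50 and -3.79 at 8CS, a 26.9-fold rise. Inositol monophosphatase 1 (impa1), which releases free inositol from its phosphate, rose 16.5-fold, with 1.67, 1.63 and 0.90 at GR against -2.49, -2.83 and -2.60 at 8CS. In these 3 probes every GR array lay at least 3 log2 units above every 8CS array. Det1 and ddb1 associated 1 (dda1), a subunit of cullin 4 ubiquitin ligases, had 3.15, 3.38 and 2.92 at GR against -0.54, -0.89 and -0.79 at 8CS (14.8-fold). Fructose-1,6-bisphosphatase 1, the gluconeogenic enzyme, had 3.22, 3.42 and 3.56 at GR against -0.02, -0.03 and -0.63 at 8CS (12.3-fold). The ATP-binding cassette transporter abca1, which exports cholesterol from cells, rose 12.1-fold. The others of the 10 were phospholipase C gamma 1 (9.17-fold), a signalling enzyme downstream of receptor tyrosine kinases, the adhesion receptor latrophilin 2 (6.33-fold), the lymphocyte growth factor interleukin 7 (2.43 on the log2 scale) and the splicing factor arginine serine-rich 6 (5.22-fold). Under normexp abca1 (2.25), phospholipase C gamma 1 (1.86), latrophilin 2 (0.70), interleukin 7 (0.36) and the splicing factor (0.81) were not called either. With the outlier local backgrounds of the spots replaced, these were 2.88, 2.52, 1.49, 1.09 and 1.55. Ifi56 was then 3.62, beside 3.84 for tfpi2 and 3.70 for dda1. Ifi56 and each of the probes not called under normexp were called in 25 of the 26 other settings.

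**Figure D4:**
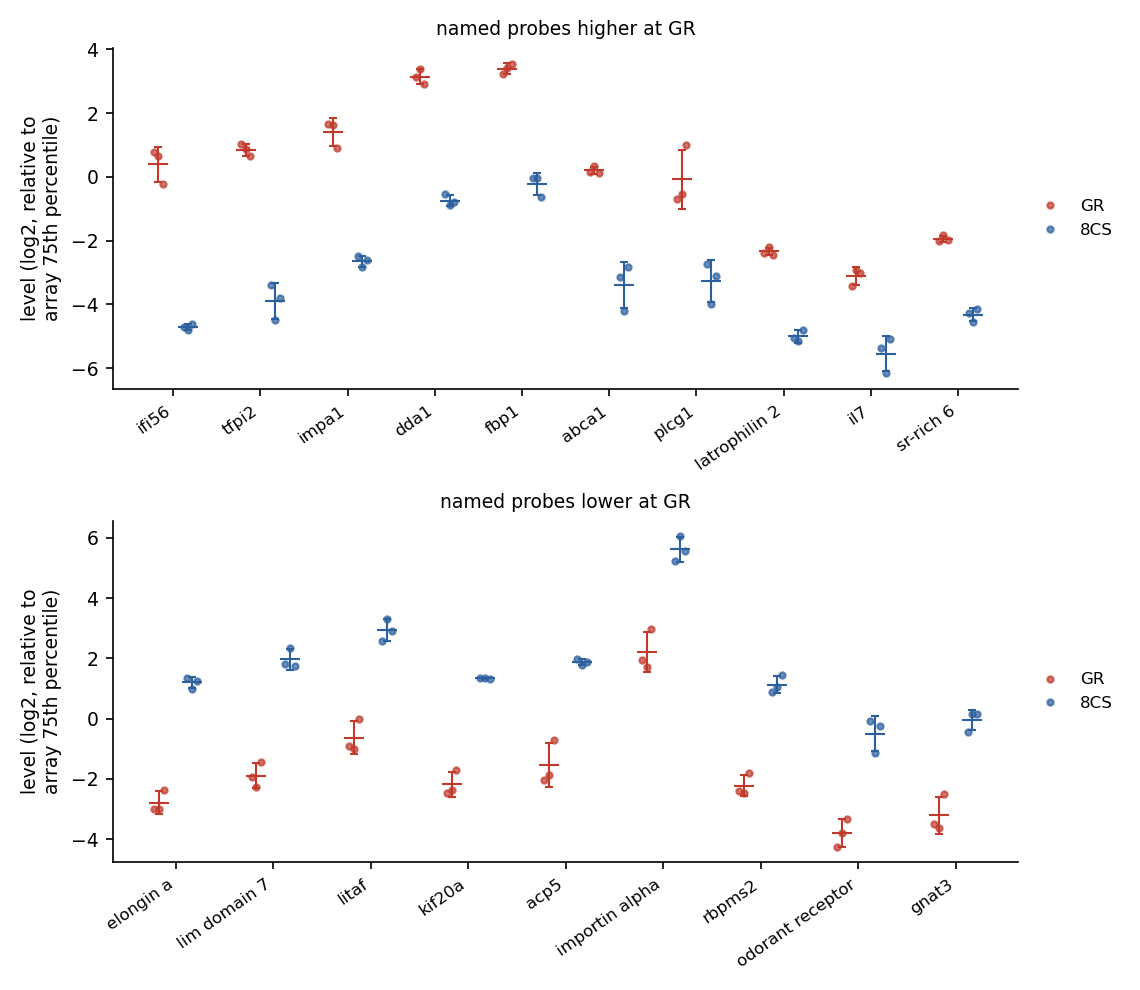
Levels (log2, relative to the array 75th percentile) of the 10 named probes with the largest rise at GR (upper panel) and 9 of those with the largest fall (lower panel), among probes well above background on all 6 arrays. Points are single arrays, GR in red left of 8CS in blue, with the mean and SD of 3 arrays, and the stages overlap in none of them.

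Genes of transcription, chromatin and splicing rose together. The list drew on a table of GR transcripts that the study chose on these same arrays, so its direction is not independent evidence. All 9 members were called higher at GR, beside 23.1% of all tested probes. Their median difference was 1.92, beside 0.08 over all tested probes. The probe for a homologue of nipped-b, which loads cohesin onto chromatin, had 3.14, 3.06 and 3.60 at GR against 1.01, 0.93 and 1.00 at 8CS, a 4.87-fold rise. The zinc finger ccch-type protein 15 rose 4.23-fold. The elongation factor suppressor of ty 6, which travels with RNA polymerase II, rose by 1.98, the histone acetyltransferase myst1 by 1.92 and luc7-like 3, a factor of the spliceosome, by 1.90. Among the smallest differences in the list was that of the g patch domain and kow motifs probe (1.555). The others were those of splicing factor subunit 3 (1.44) and taf1, the largest subunit of the general factor TFIID (1.558). Those 2 lost their call with 8CS replicates 1 and 2 left out (1.27 and 1.04), and 7 of 9 members kept it. Of all 42 probes of the GR table, named or not, 40 were called higher and 0 lower, with a median of 2.26. The 2 that were not called were parvalbumin, a calcium-buffering protein of muscle (0.76), and the unnamed HH_90988278 (0.51).

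Only 3 named probes were well above background on every GR array and on no 8CS array. Fk506 binding protein 5, a co-chaperone of steroid receptors, had -4.00, -3.65 and -3.04 at GR and was at least 8.49-fold higher than at 8CS. Urate oxidase, which degrades uric acid, was at least 8.07-fold higher, and claudin 17, a tight junction protein, at least 6.48-fold higher. Under normexp these 3 differed by 0.48, 0.52 and 0.35, and none was called. With the outlier local backgrounds replaced they differed by 1.28, 1.31 and 1.12. The largest bounds of this kind were in unnamed probes, HH_90600255 (at least 95.2-fold), HH_Contig1000 (91.5), HH_90602651 (69.8), HH_75738567 (65.5) and HH_90603719 (63.7). HH_90600255 was at -0.15, -0.24 and 0.17 at GR, close to the 75th percentile of these arrays. None of these unnamed probes was called under normexp, with differences of 2.25 to 2.73. With the outlier local backgrounds replaced the differences were 3.33 to 3.77.

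Among the falls, elongin a, a subunit of the complex that speeds elongation by RNA polymerase II, showed the largest one with a name and measurements on all 6 arrays. Its levels were -2.99, -3.01 and -2.36 at GR, against 1.36, 1.00 and 1.24 at 8CS. The stages were far apart and the fall was 15.8-fold (difference -3.99, SE 0.25, adjusted p 6.1e-05). A lim domain 7 protein had -1.95, -2.28 and -1.45 at GR against 1.81, 2.35 and 1.73 at 8CS (-3.86). Lipopolysaccharide-induced tnf factor (litaf), a membrane protein of late endosomes, fell 11.8-fold, with -0.90, -1.01 and 0.00 at GR against 2.58, 3.30 and 2.92 at 8CS. In the 9 named falls described here GR replicate 3 was the highest of the GR arrays but stayed below every 8CS array. Kinesin family member 20a, a motor of cytokinesis, fell 11.4-fold to -2.45, -2.37 and -1.71 at GR, against 1.34, 1.35 and 1.32 at 8CS. Tartrate-resistant acid phosphatase type 5, a lysosomal enzyme, differed by -3.41. Importin alpha, the adaptor of nuclear import, was bright at both stages, with 1.95, 1.71 and 2.96 at GR against 5.23, 6.04 and 5.56 at 8CS, and fell 10.6-fold. An odorant receptor probe (-3.29) and the G protein alpha subunit gnat3 (-3.16), best known from taste cells, had the smallest falls of this group, and rbpms2 is described with the maternal RNA binding genes.

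Falls without a name were in part those of the 204 probes. HH_Contig135 had -4.46, -4.79 and -2.71 at GR, against 4.78, 5.17 and -0.24 at 8CS. The 8CS arrays differed among themselves by more than 5 units, and the difference of -7.22 became -3.74 with 8CS replicates 1 and 2 left out and -8.96 without 8CS replicate 3. HH_Contig42 (-6.41) was -2.92 and -8.15 in the same fits, and HH_Contig34 (-4.35) was -0.86, no longer called, and -6.09. The 5 largest bounds among probes seen only at 8CS were of this set too: HH_Contig2622 (at least 78.5-fold), HH_Contig1363 (76.8), HH_Contig767 (61.2), HH_193888429 (47.0) and HH_Contig2943 (39.4). With 8CS replicates 1 and 2 left out, the fitted difference of HH_Contig2622 was -3.98 in place of -7.41, that of HH_Contig1363 -3.42 in place of -7.74 and that of HH_Contig767 -3.63 in place of -7.18. HH_193888429 was then at -2.63 and HH_Contig2943 at -2.94, and HH_193888429 lost its call with the slide as a fixed block (adjusted p 0.0651). Other large falls were alike on all 8CS arrays. HH_Contig1754 had -4.96, -4.47 and -2.76 at GR against 1.39, 1.44 and 0.97 at 8CS (-5.33), and HH_90607826 had -4.98, -4.84 and -3.80 against 0.47, 0.35 and -0.01 (-4.81). HH_Contig2870, HH_Contig2927 and HH_166850870 fell by 4.22 to 4.26. HH_Contig2086 (-4.38) was uneven at GR, with -4.28, -3.81 and 0.52, and with 8CS replicates 1 and 2 left out the difference was -4.56 but not called (adjusted p 0.0895).

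The next groups were drawn largely from a table of 160 transcripts that the study chose on these arrays as present at 8CS only, so that their falls are not independent evidence of direction. Of these 160 probes, 158 were called lower and 0 higher at GR, with a median of -2.16 beside 0.08 over all tested probes. Over all tested probes 23.1% were called higher and 23.2% lower, and the list counts below stand beside these shares. Of the 160, 131 were well above background on all 3 GR arrays and 160 on all 3 8CS arrays. Their signal was lower at GR but remained measurable in most cases.

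Genes of maternal RNA binding and decay fell, with 8 of 8 members called lower (7 of 8 with the slide as a fixed block) and a median of -2.26. Rna binding protein with multiple splicing 2 (rbpms2), which in zebrafish oocytes binds RNA of the germ plasm, had -2.39, -2.46 and -1.81 at GR against 0.88, 1.06 and 1.43 at 8CS, a 10.2-fold fall. B-cell translocation gene 3 (btg3), of a family that recruits the deadenylase to mRNAs, fell 7.97-fold to 2.41, 2.33 and 2.98 at GR, against 5.73, 5.53 and 5.45 at 8CS. Ccr4-not subunit 6, a catalytic subunit of that deadenylase, was dim at both stages, with -4.63, -4.51 and -3.84 at GR against -2.36, -3.02 and -2.82 at 8CS, and fell 3.01-fold. Groups overlapped in none of the 3. A cold shock domain RNA binding protein fell 5.32-fold and dead box protein 19b, a helicase of mRNA export, 5.10-fold. Ribonuclease p 21 kDa subunit, which takes part in tRNA processing, fell by 2.17 on the log2 scale and caprin family member 2, an RNA granule protein, 3.51-fold. The moloney leukemia virus 10-like homologue, whose mouse relative is needed for piRNA production, was well above background at 8CS only and fell at least 2.45-fold, a call lost with the slide as a fixed block (-1.48, adjusted p 0.06).

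The listed egg and germ line transcripts fell as well, with 6 of 6 called lower and a median of -1.80, and 4 of 6 with the slide as a fixed block. All members came from the 8CS table, so the list does not stand for germ line transcripts as a group. The paper describes other germ cell transcripts as present at both stages. Most of those were highest at the earlier stage, but it reports a peak of vasa and askopos at the germ ring stage. Linker histone h1m, the histone H1 of fish eggs, remained bright at GR with 3.67, 3.46 and 4.62, against 6.61, 6.74 and 6.28 at 8CS. The stages did not overlap, and the fall was 6.17-fold, a call lost with the slide as a fixed block (-2.58, adjusted p 0.106). The probe of a zona pellucida-like domain protein, akin to proteins of the egg envelope, had 1.38, 1.26 and 1.09 at GR against 2.73, 3.06 and 2.93 at 8CS (3.17-fold). Both defining egg markers were thus at levels above the 75th percentile at both stages. Tudor domain containing 3, of a family that binds methylated arginines, fell 4.22-fold, fk506 binding protein 6, which acts in the piRNA pathway of mice, 3.56-fold, and the histone chaperone nasp 3.07-fold. Markers of differentiated tissues were looked at as well. They came from tables of later stages that the study chose on these arrays, so their absence is no independent check of the stage labels. Of 8 such probes, 7 (hatching enzyme, complement component 3, complement factor d, apolipoprotein h, hepcidin, cholinergic receptor nicotinic alpha 1 and procarboxypeptidase b) were well above background on none of the 6 arrays and were not tested. The eighth, cardiac myosin binding protein, had -1.78, -2.29 and -2.11 at GR against -1.84, -1.93 and -2.29 at 8CS, a difference of -0.04.

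Cell division and microtubule genes fell in 12 of 13 members, with a median of -2.09. Beside kinesin family member 20a and importin alpha, described above, g-protein signalling modulator 2, which orients the spindle, was seen only at 8CS and was at least 8.62-fold lower at GR. Unc-84 homologue a, a protein of the inner nuclear membrane, fell 5.32-fold, to 1.83, 1.57 and 2.19 at GR against 4.17, 4.32 and 4.34 at 8CS. Replication protein a2, which coats single-stranded DNA, fell 4.26-fold and f-box protein 5, an inhibitor of the anaphase-promoting complex, 3.15-fold. Myosin 19, a mitochondrial motor, was at least 4.60-fold lower. Under normexp myosin 19 (-0.92) and g-protein signalling modulator 2 (-1.36) were not called. The exception was cyclin-dependent kinase inhibitor 3, a phosphatase of the cell cycle, with a difference of -0.84. With 8CS replicates 1 and 2 left out, 10 of the 13 were called, and f-box protein 5 (adjusted p 0.058) and pde4dip (adjusted p 0.16) were not.

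Transcription factors of the 8CS table went the other way from those of the GR table, with 9 of 9 called lower and a median of -2.80. Elongin a led them. A probe named for a binding partner of transcription elongation factor b polypeptide 3 fell 6.95-fold, with -3.84, -3.51 and -3.21 at GR against -0.83, -0.59 and -0.73 at 8CS. Tripartite motif-containing 66, of a family of ubiquitin ligases and chromatin readers, was bright and fell 8.22-fold to 1.39, 1.47 and 1.76 at GR, against 4.91, 4.28 and 4.54 at 8CS. Of the zinc finger proteins in the list, HH_90603133 (well above background on 1 GR array) and HH_Contig2957 differed most, by -3.15 and -2.79.

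**Figure D5:**
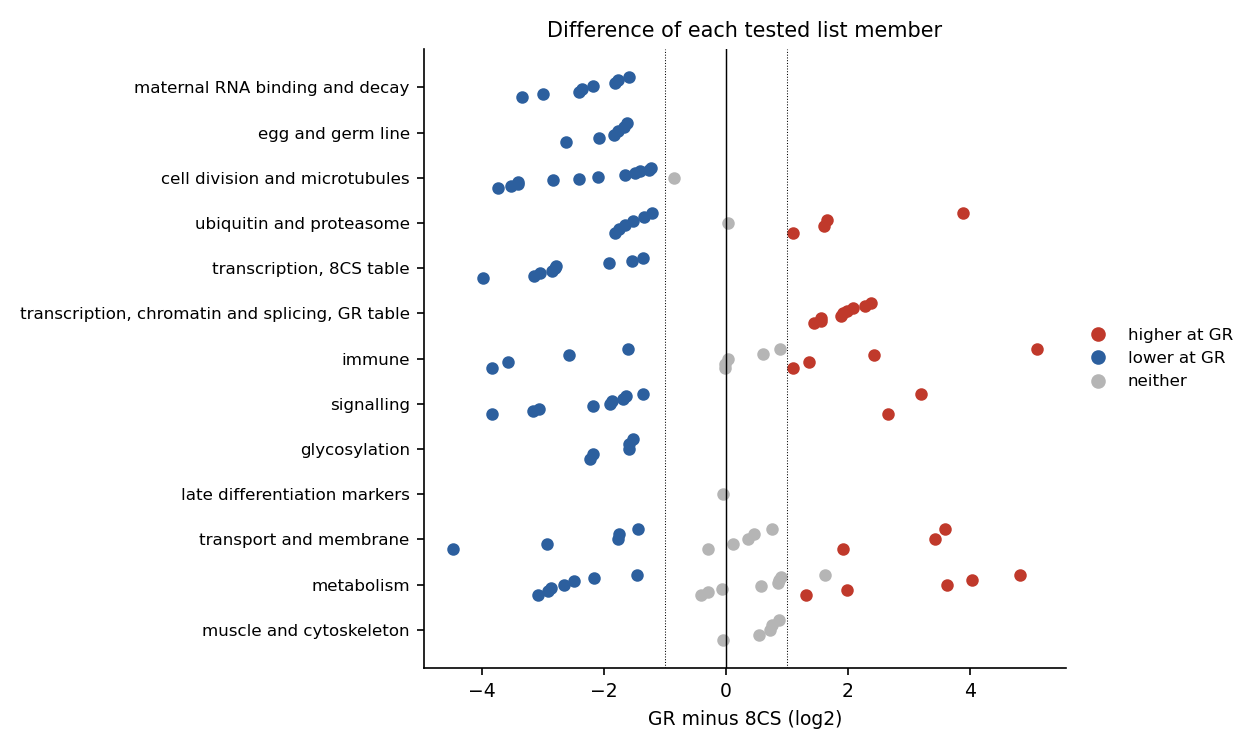
Difference between GR and 8CS (x axis, log2, GR minus 8CS) of each tested member of 13 gene lists, with dotted lines at a 2-fold difference. Members called higher at GR are red, called lower blue and neither grey. The 9 members of the GR table list lie right of the line and those of the maternal, egg and 8CS table lists left of it, while the ubiquitin, immune, transport and metabolism lists have both.

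Nuclear import, ubiquitin and tight junction genes held members of opposite direction. The rises named here came from the GR table and the falls from the 8CS table. Both tables were chosen on these arrays, so the opposite directions are not independent evidence. Importin alpha fell while its relative karyopherin alpha 4 was higher at GR, with 5.62 ± 0.32 at GR and 3.92 ± 0.14 at 8CS (SD, n = 3 each, 3.26-fold). That rise did not pass under quantile normalization (0.44, adjusted p 0.163). Claudin 4 fell 7.61-fold, with 3.20 ± 0.59 at GR and 6.13 ± 0.13 at 8CS (SD, n = 3 each). With the slide as a fixed block it differed by -2.98 and was not called (adjusted p 0.0537). Claudin 17 was higher at GR, as given above, and claudin 15 differed by 0.37 with overlapping arrays. Of 11 ubiquitin and proteasome members, 4 were called higher and 6 lower, beside 23.1% and 23.2% of all tested probes. Beside dda1, the substrate receptor asb12 (3.17-fold) and the deubiquitinase ubiquitin specific peptidase 7 (3.06-fold) rose. The spla and ryanodine receptor domain probe fell 3.53-fold, and retinoblastoma binding protein 6, a ubiquitin ligase, fell 3.35-fold, to 1.26, 1.22 and 1.36 at GR against 3.11, 3.08 and 2.88 at 8CS.

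Of 20 immune probes, 13 were tested. Of these, 4 (30.8%) were called higher and 4 (30.8%) lower, with a median of 0.03, beside 23.1% and 23.2% of all tested probes. Beside ifi56 and interleukin 7, c-type lysozyme, which cleaves bacterial cell walls, rose 2.58-fold from a low level, with -4.55, -4.09 and -4.19 at GR against -5.72, -5.49 and -5.73 at 8CS. With the slide as a fixed block its rise was 1.18 and not called (adjusted p 0.0665). Interleukin 7 itself had -3.44, -2.91 and -3.00 at GR against -5.38, -6.16 and -5.09 at 8CS. Both stayed dim on all arrays. Interferon regulatory factor 7 (irf7), the transcription factor that switches on type I interferon genes, fell 3.02-fold, to -2.91, -2.99 and -2.67 at GR against -0.52, -1.70 and -1.55 at 8CS (adjusted p 0.00575). Tank-binding kinase 1, which activates factors of that family, was well above background on no GR array, against levels of -2.73, -3.52 and -2.55 at 8CS, and was at least 7.03-fold lower. Under normexp the kinase differed by -1.13 and was not called. Ifi56, an interferon-induced gene in vertebrates, was thus higher at GR on the same arrays on which the regulator and the kinase were lower. The ligand pd-1l, which inhibits T cells, fell by 2.57, to -5.30, -5.48 and -5.09 at GR against -3.21, -2.55 and -2.42 at 8CS, and 2 of the 3 GR arrays were well above background.

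None of the antigen presentation probes passed both limits with all 6 arrays. Mhc class 1A chain (mhc1a) had -4.16, -4.10 and -4.30 at GR against -5.44, -5.14 and -4.66 at 8CS, a difference of 0.90 (adjusted p 0.0186), under 2-fold. Without 8CS replicate 3 it was 1.11 and called (adjusted p 0.00651), and with 8CS replicates 1 and 2 left out it was 0.47. Proteasome subunit beta type-9 (psmb9), of the immunoproteasome, differed by 0.03. Mhc class 2A chain (mhc2a) was well above background on none of the 6 arrays and was not tested. The ring finger protein rnf213 was called 2.14-fold higher at GR (adjusted p 0.0251), but it was well above background on 2 GR arrays and 1 8CS array, and the call was lost with 8CS replicates 1 and 2 left out. The remaining untested immune probes, complement component 3 and hepcidin among them, were at background.

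Signalling genes were mostly lower at GR, with 2 of 11 called higher and 9 lower (median -1.87), beside 23.1% and 23.2% of all tested probes. Phospholipase C gamma 1 and latrophilin 2, both from the GR table, were the rises. The falls named here came from the 8CS table, so the split is not independent evidence. Phospholipase C gamma 1 was uneven at GR, with -0.69, -0.52 and 0.99, against -2.72, -4.00 and -3.10 at 8CS, and the stages did not overlap. Of the falls, tbk1 and gnat3 are described above. The G protein alpha 14 subunit fell 8.35-fold, to -1.37, -1.52 and -0.33 at GR against 1.98, 2.03 and 1.96 at 8CS. Radical fringe, a glycosyltransferase that modifies notch receptors, differed by -2.18, and it was also a member of the glycosylation list, in which 5 of 5 were called lower (median -1.58). Fucosyltransferase 9 fell 4.65-fold there, to -1.84, -1.51 and -2.05 at GR against 0.31, 0.56 and 0.38 at 8CS.

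Transport genes included the largest fitted fall of any named probe. The urea transporter had -5.88, -5.50 and -3.86 at GR, against -0.18, -0.78 and -0.88 at 8CS. GR replicate 3 was nearest to 8CS, 2 of the 3 GR arrays were well above background, and the difference was -4.47 (SE 0.53, adjusted p 0.00042). Of 13 tested transport and membrane members, 3 (23.1%) were called higher and 5 (38.5%) lower, beside 23.1% and 23.2% of all tested probes. With 8CS replicates 1 and 2 left out, 3 were called in each direction. Bet1 homologue, a protein of vesicle fusion, rose 3.79-fold, with 2.47, 2.45 and 2.93 at GR against 0.79, 0.61 and 0.70 at 8CS. The adenine nucleotide carrier slc25a5 of mitochondria was bright and fell 2.73-fold, to 3.87, 3.87 and 4.12 at GR against 5.83, 5.12 and 5.25 at 8CS. Coatomer epsilon differed by -0.29 and sec24 member d by 0.12.

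Of 20 tested metabolic enzymes, 5 (25%) were called higher and 7 (35%) lower, beside 23.1% and 23.2% of all tested probes (median 0.25). P450 oxidoreductase, the electron donor of microsomal P450 enzymes, fell 8.47-fold from a high level, with 2.71, 2.61 and 3.24 at GR against 5.89, 6.22 and 5.69 at 8CS. Agmatine ureohydrolase, which makes putrescine and urea, fell 7.52-fold and carbonic anhydrase vii 7.26-fold. Superoxide dismutase fell 5.59-fold, to 2.24, 2.18 and 2.99 at GR against 5.51, 4.53 and 4.83 at 8CS. Among the rises after fructose-1,6-bisphosphatase 1, impa1 and urate oxidase were diamine acetyltransferase 2, of polyamine breakdown (1.99), and hydroxymethylglutaryl-CoA synthase 1, of cholesterol synthesis (1.32), and with 8CS replicates 1 and 2 left out these were 1.87 and 0.96 and not called (adjusted p 0.0954 and 0.0671). Adenosine kinase had a mean difference of 1.64 but was spread widely at GR, with -1.54, -2.30 and 0.66 against -2.65, -3.19 and -2.24 at 8CS (adjusted p 0.0946). Enzymes of respiration differed less than 2-fold, with 0.91 and 0.86 for 2 subunits of NADH dehydrogenase, 0.87 for malate dehydrogenase and -0.29 for the b560 subunit of succinate dehydrogenase. Of 8 muscle and cytoskeleton probes, 5 were tested and 0 were called, with differences between -0.04 and 0.88.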

How the data were processed

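The deposited scanner output of each 1-colour array gives spot intensities on a linear scale, from which the authors' software had subtracted the background, with no normalization between arrays. The file headers name Feature Extraction 10.7.1.1 and the submitters' processing notes 7.2. A deposited table of log2 values, shifted to the 75th percentile and centred per probe by the authors, served as an alternative. Here control and outlier spots were left out, log2 intensities were set relative to the 75th percentile of each array, and copies of a probe were averaged. Stages were compared with limma 3.58.1 in R 4.3.3 (lmFit, eBayes), and calls needed a Benjamini-Hochberg adjusted p below 0.05 together with at least a 2-fold difference, as in the methods. The calculations were tested on simulated data. No probe spot was saturated, and 761 to 1186 spots per array were marked as outliers. The 3 arrays per stage limit the precision.

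Named are the 10 largest differences in each direction among called probes measured on all 6 arrays without overlap, the same for probes with a name in the study's tables, the 5 largest bounds among probes seen at 1 stage only (and named ones), the brightest 5 probes, 8 immune genes, and for each gene list its counts and largest members. Exceptions are marked, and 1 named probe that the rule selects is not reported here. The pair, the lists and these rules were chosen with earlier results of these data known. Probe sequences and genome positions were not used here.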

Additional observations from a re-analysis of the deposited data

How the results depend on the processing

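Over 26 other settings, 168 named or listed probes were followed, 135 of them called. Of those, 54 were called in every setting, and no probe of the array was called in the opposite direction in any. The count of called probes, 4126, was 1063 with normexp background correction (536 higher and 527 lower at GR), of which 1032 were calls made before. Normexp was run with an offset of 50 added to the signals. With the outlier local backgrounds replaced, 2767 were called, 1506 higher and 1261 lower. Under normexp rnf213 (HH_90598492) turned to -0.0827 and c-type lysozyme (HH_Contig2776) to -0.0295, both not called. Under normexp 5 of 8 maternal RNA binding, 1 of 6 egg and germ line, 5 of 13 cell division, 0 of 11 ubiquitin, 2 of 11 signalling, 1 of 5 glycosylation and 4 of 9 members of the 8CS table transcription list were called lower, as were 1 immune and 2 transport members, while 3 of 9 of the GR table list, 1 ubiquitin, 0 immune, 1 transport and 2 metabolic members were called higher. With the outlier backgrounds replaced, 6 of 8 maternal RNA binding, 5 of 6 egg and germ line and 8 of 13 cell division members were called lower. So were 4 of 11 ubiquitin, 5 of 11 signalling, 4 of 5 glycosylation and 8 of 9 members of the 8CS table transcription list. Of the immune and of the transport members 4 each were then lower. Called higher were 9 of 9 of the GR table list, 3 ubiquitin, 2 immune, 3 transport and 4 metabolic members. With the slide as a fixed block 2 transport members were called lower and 8 metabolic members higher, and median scaling gave 9 metabolic members higher and no fold limit gave 8. Another 20 uncalled probes changed sign. The cause was not tested. Leaving out each array gave 3912 to 4561 called probes (1938 to 2278 higher, 1937 to 2283 lower), 140 to 202 probes seen only at GR, and 269 to 424 only at 8CS. Scaling to the array median made 2500 probes higher and 1762 lower, with a median difference of 0.30 over all tested probes. The fit with 8CS replicates 1 and 2 left out was chosen after seeing the data and assumes that the lone 8CS array varies like the GR arrays.

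Arrays of equal replicate number gave no sign of pairing (correlations of their deviations -0.09, 0.09 and 0.05). Those of unequal number had -0.19 to 0.19. With 3 arrays per stage this cannot tell whether the stages shared egg batches. With the replicate number as a block 4166 probes were called, 2095 higher and 2071 lower.

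The limits lie in 3 arrays per stage, in dim probes, where levels below background have no size, and in the scaling, since a change in the total RNA of the embryo does not show on a scale relative to the array's own 75th percentile. A further limit is that stage and slide were largely confounded.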
